A study of Mus musculus with 12 samples.

Results

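The 10 genes described here encode nonclassical MHC class I heavy chains of the mouse: H2-Q4, H2-Q6, H2-Q7, H2-T10, H2-T22, H2-T23, H2-T24, H2-M3, Cd1d1 and Mr1. They were chosen by symbol, through the Ensembl IDs of the gene count table, and make up 10 of its 55401 genes. All 10 passed the filter on low counts. RNA came from 12 tumors of TC2Ras, a mouse prostate cancer cell line, taken 21 days after 125000 cells were implanted under the skin of both flanks. The 4 groups of 3 tumors were Control (TC2Ras alone, 0 ppb inorganic arsenic, iAs), ASC (1% ASC-GFP cells mixed in, 0 ppb iAs), As300 (TC2Ras alone, 300 ppb iAs in the drinking water from implantation on) and ASC_As300 (both). All mice, Control included, first received low-arsenic chow and purified water. ASC-GFP are primary adipose-derived stromal cells of C57BL/6 mice that carry GFP. The strain and age of the host mice are not given in the sources used here. Each tumor sample pools the left and right flank of 1 mouse and holds tumor, stroma and immune cells together, so that fewer cells of a type and less RNA per cell cannot be told apart. The labels name the cell type as adipose-derived stromal cells, whereas the methods describe whole tumors. Markers of macrophages, T cells, endothelium and fibroblasts were all detected. The design asks what ASC do to the tumor, what iAs does, and whether one changes the effect of the other.

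Class I heavy chains pair with beta-2 microglobulin (B2m) and display ligands on the cell surface. The classical molecules H2-K1 and H2-D1 show varied peptides to CD8 T cells, while the nonclassical ones vary little between individuals and show narrower sets of ligands to NK cells and unconventional T cells. Interferon gamma, in part through IRF1, and the transactivator NLRC5 are known to raise transcription of class I genes, and class I promoters are known for a compact module of short motifs that serve these factors. H2-Q, H2-T and H2-M genes lie in the H2 complex, whereas Cd1d1 and Mr1 lie outside it.

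On GRCm38 (GENCODE M21) 8 members are on chromosome 17. In the Q region lie H2-Q4 (ENSMUSG00000035929, chr17:35379617-35385290), H2-Q6 (ENSMUSG00000073409, chr17:35424850-35430055) and H2-Q7 (ENSMUSG00000060550, chr17:35439155-35443773), all on the plus strand. The T region holds H2-T24 (ENSMUSG00000053835, chr17:36005695-36020560), H2-T23 (ENSMUSG00000067212, chr17:36029773-36032855), H2-T22 (ENSMUSG00000056116, chr17:36037128-36042747) and H2-T10 (ENSMUSG00000079491, chr17:36115876-36121465), all on the minus strand. H2-M3 (ENSMUSG00000016206) lies at chr17:37270220-37274484 on the plus strand. Cd1d1 (ENSMUSG00000028076) is at chr3:86995834-86999441 and Mr1 (ENSMUSG00000026471) at chr1:155127277-155146814, both on the minus strand. H2-T10 is annotated as a polymorphic pseudogene and lies inside Gm7030 on the same strand. Antisense genes overlap H2-T22, H2-T23, H2-T24 (all A930015D03Rik), H2-T10 (BC023719) and H2-Q4 (Gm11131), and the library kit is stranded, but whether the counting used strand is not given in the sources used here.

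Promoter sequence was taken from RefSeq (GRCm38.p6) as the 250 bases before the annotated start. Entries existed for 7 of the 10 members, and H2-T10, H2-T24 and Cd1d1 were not among them. Each was searched on both strands for the letters TTTCACT (a core of the interferon box of class I promoters), GATTCCC (a kappa B core), TGATGAC (an X2 box core, part of the module that NLRC5 acts through), CCAAT, and GAAA followed by any 2 bases and GAAA (a core of the interferon-stimulated response element, which can overlap TTTCACT on the other strand). Below, 6 promoters are written 5′ to 3′ along the gene, because they show the shared module (H2-Q4, H2-Q7, H2-T22, H2-M3) next to a promoter with other motifs (H2-T23) and one with none (Mr1). Capitals mark every motif match.
H2-Q4 (chr17:35379367-35379616, plus strand): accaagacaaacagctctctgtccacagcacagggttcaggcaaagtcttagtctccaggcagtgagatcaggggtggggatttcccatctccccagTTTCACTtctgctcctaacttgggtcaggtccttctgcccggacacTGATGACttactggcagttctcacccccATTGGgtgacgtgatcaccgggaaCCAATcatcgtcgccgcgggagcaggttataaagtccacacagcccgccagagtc
H2-Q7 (chr17:35438905-35439154, plus strand): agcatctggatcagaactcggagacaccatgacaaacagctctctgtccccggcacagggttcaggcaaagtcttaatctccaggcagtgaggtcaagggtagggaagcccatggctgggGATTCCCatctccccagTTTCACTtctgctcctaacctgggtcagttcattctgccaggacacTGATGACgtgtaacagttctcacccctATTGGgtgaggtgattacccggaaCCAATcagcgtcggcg
H2-T22 (chr17:36042743-36042992, minus strand): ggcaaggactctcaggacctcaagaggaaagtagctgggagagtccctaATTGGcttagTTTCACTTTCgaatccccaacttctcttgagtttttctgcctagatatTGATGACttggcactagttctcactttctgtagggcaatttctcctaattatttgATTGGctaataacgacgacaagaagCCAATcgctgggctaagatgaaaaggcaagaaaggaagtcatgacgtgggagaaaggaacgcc
H2-T23 (chr17:36032702-36032951, minus strand): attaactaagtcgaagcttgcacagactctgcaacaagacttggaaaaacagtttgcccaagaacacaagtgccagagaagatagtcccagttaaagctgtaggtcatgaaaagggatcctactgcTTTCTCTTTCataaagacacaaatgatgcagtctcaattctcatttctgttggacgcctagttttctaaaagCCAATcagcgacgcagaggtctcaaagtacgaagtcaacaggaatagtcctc
H2-M3 (chr17:37269984-37270233, plus strand): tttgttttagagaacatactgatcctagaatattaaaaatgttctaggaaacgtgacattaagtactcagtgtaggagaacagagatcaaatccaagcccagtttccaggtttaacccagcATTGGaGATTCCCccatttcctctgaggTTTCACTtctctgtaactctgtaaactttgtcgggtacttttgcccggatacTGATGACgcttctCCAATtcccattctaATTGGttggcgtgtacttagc
Mr1 (chr1:155146815-155147064, minus strand): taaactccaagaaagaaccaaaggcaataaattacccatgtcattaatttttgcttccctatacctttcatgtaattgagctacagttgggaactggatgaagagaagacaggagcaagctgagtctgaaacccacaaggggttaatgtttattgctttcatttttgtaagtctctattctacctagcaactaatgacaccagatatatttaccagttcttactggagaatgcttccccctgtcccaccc

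TTTCACT and TGATGAC occurred together in 5 of the 7 promoters, those of H2-Q4, H2-Q6, H2-Q7, H2-T22 and H2-M3. Of all 32851 mouse promoters of this length, 3.7% held TTTCACT and 2.69% held TGATGAC. In H2-Q4 TTTCACT began 153 bases and TGATGAC 107 bases before the start, and in H2-T22 they began at 191 and 143 bases. GATTCCC (2.83% of all promoters) was found in H2-Q6, H2-Q7 and H2-M3. The double GAAA (2.98%) was found in H2-T22, where it overlaps TTTCACT, and in H2-T23, where it began 124 bases before the start on the other strand. CCAAT (33.8%) was in every one of the 7 but Mr1. The Mr1 promoter held none of the 5 letter strings. A match says only that these letters are present in the window. Only these exact letters were searched, so the lack of a match does not exclude a variant of the motif. RefSeq and GENCODE starts differ for some genes, and the windows of H2-T22, H2-T23 and H2-M3 run into the GENCODE genes given above. Both matches of H2-T23 lie inside its GENCODE gene, so calling them promoter motifs depends on the start used.

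**Figure D1:**
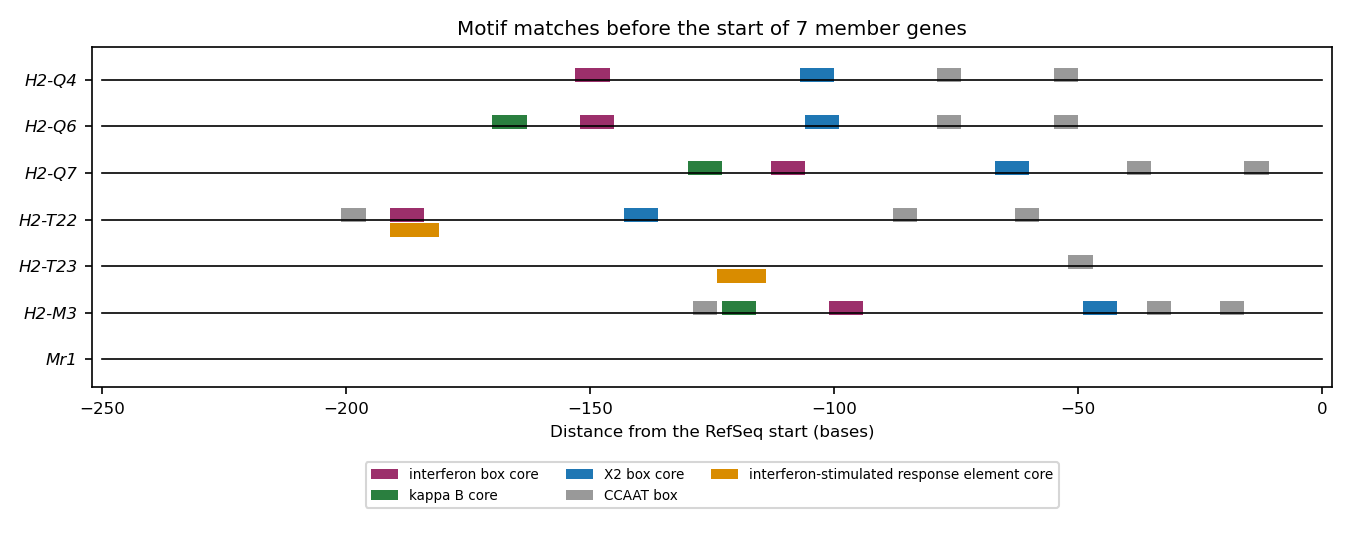
Motif matches in the 250 bases before the RefSeq start of 7 member genes, with distance from the start in bases on the horizontal axis and 1 line per gene; colored boxes stand for the 5 motifs, and the interferon-stimulated response element is drawn under the line. The pair of interferon box and X2 box recurs in 5 genes, H2-T23 holds a response element and a CCAAT box, and Mr1 has no match.

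Total counts per tumor ran from 39157647 to 55168642, and 20818 genes passed the filter and were tested. Levels are CPM, counts scaled to library size after TMM normalization, and differences are log2 fold changes with their standard error (SE) from edgeR's quasi-likelihood test, Benjamini-Hochberg adjusted over all genes tested. A gene was called when its adjusted p was under 0.05 and its change at least 1.5-fold. Control replicate 1 stood apart: its summed B cell markers (10 of 10 detected) were at 278 CPM against 5.93 to 22.5 CPM in the other 11 tumors, its T cell markers (12 of 12 detected) at 114 CPM against 19.7 and 22.7 CPM in the other Control tumors, and its epithelial markers at 401 CPM against 69.2 to 178 CPM elsewhere. Counts of member calls that rest on Control are therefore also given without Control replicate 1. Skeletal muscle marker sums were at 1820 CPM in Control replicate 2 and 1790 CPM in As300 replicate 1, against 2.73 to 365 CPM elsewhere.

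Reads of genes with shared stretches may have been split or shared in the authors' counting. The share of 100-base stretches of a member's transcripts that also occur in other genes was 10.8% for H2-Q6, 12% for H2-Q7, 8.86% for H2-T22, 7.06% for H2-T10 and 10.5% for Cd1d1, the last all with Cd1d2. It was 2.16% for H2-Q4 and 3.15% for H2-T23, and 0 for H2-T24, H2-M3 and Mr1. Values of the 7 members with shared stretches, H2-T22 included, are uncertain to an extent that was not measured. The related genes H2-Q8, H2-Q9 and H2-T9 were not found in the table by symbol, and where their reads were counted is not known. Cd1d2 itself was at 0 to 0.324 CPM.

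Members differed widely in level. Scaled to CPM per kilobase of exon and averaged over the 12 tumors, H2-T23 was at 38.6, H2-T22 at 24.9, H2-Q4 at 20.3, H2-Q6 at 18.1, H2-Q7 at 10.4 and H2-M3 at 10.2. The remaining members were lower, with H2-T24 at 2.3, Cd1d1 at 2.0, Mr1 at 1.86 and H2-T10 at 1.19 CPM per kilobase. On the same scale the classical H2-D1 was at 237 and H2-K1 at 161, and B2m, the light chain shared by all, at 1030. Within ASC tumors H2-T23 (43.1 to 55.6) lay above H2-T22 (29.1 to 35.1) without overlap, whereas H2-T22, H2-Q4 (28.4 to 32.9) and H2-Q6 (21.8 to 29.9) each overlapped the next. H2-Q7 (13.8 to 17.8) and H2-M3 (11.6 to 13.6) lay close without overlap, and H2-T24, Cd1d1, Mr1 and H2-T10 overlapped their neighbours in the order. In Control tumors H2-T23 (20.7 to 28.3) was above H2-T22 (14.7 to 17.1), and H2-Q6 ran from 6.44 to 27.2 across both. With the longest transcript in place of all exons Mr1 was at 3.46 CPM per kilobase, above H2-T24 and Cd1d1, so the order of the low members depends on the gene length used.

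**Figure D2:**
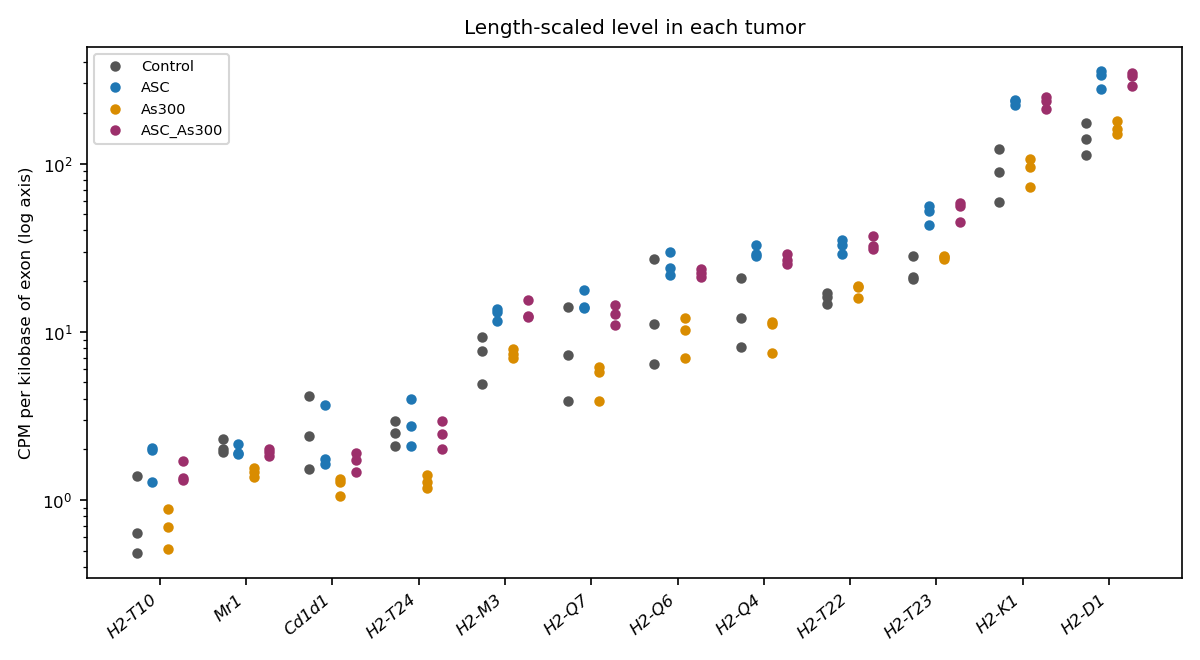
Length-scaled level (CPM per kilobase of exon, log axis) of the 10 members and of H2-K1 and H2-D1 in each of the 12 tumors, 1 point per tumor, colored by group and ordered by the mean over all tumors. H2-K1 and H2-D1 lie above all members, H2-T23 leads the members at a mean of 38.6, and 4 members stay at means of 2.3 or below.

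H2-T23 and H2-T22, both of the T region, were called higher with ASC at either iAs level. H2-T23 encodes Qa-1, which shows leader peptides of classical class I to the inhibitory receptor CD94/NKG2A of NK and CD8 T cells. Its level was 81.7, 59.7 and 60.9 CPM in Control, 125, 151 and 160 CPM in ASC, 82.0, 80.6 and 77.6 CPM in As300, and 130, 161 and 169 CPM in ASC_As300. Every tumor with ASC was above every tumor without. The log2 fold change was 1.11 (SE 0.138, adjusted p = 0.00166, edgeR) for ASC against Control and 0.94 (SE 0.138, adjusted p = 0.00432, edgeR) for ASC_As300 against As300. H2-T23 amounted to 14.7% to 18.7% of H2-D1 per kilobase in all 12 tumors, with group means between 15.7% and 17.1%.

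H2-T22 and H2-T10 encode close relatives that gamma delta T cells bind without a peptide. H2-T22 was at 58.3, 55 and 50.1 CPM in Control, 99.3, 112 and 120 CPM in ASC, 64.3, 54.3 and 62.8 CPM in As300, and 106, 111 and 126 CPM in ASC_As300. Again the 6 tumors with ASC lay above the 6 without. Its log2 fold change was 1.02 (SE 0.103, adjusted p = 0.000479, edgeR) for ASC against Control and 0.92 (SE 0.103, adjusted p = 0.000631, edgeR) for ASC_As300 against As300. H2-T10 was much lower, at 4.75, 2.19 and 1.65 CPM in Control, 4.37, 6.94 and 6.81 CPM in ASC, 2.38, 1.76 and 3.04 CPM in As300, and 4.62, 4.48 and 5.8 CPM in ASC_As300. Control replicate 1 overlapped the ASC tumors for H2-T10, and the groups ASC_As300 and As300 did not overlap. Neither change of H2-T10 was called, with log2 fold changes of 1.08 (SE 0.367, adjusted p = 0.199, edgeR) and 1.05 (SE 0.368, adjusted p = 0.336, edgeR). H2-T10 was 8.14% of H2-T22 per kilobase in Control replicate 1 and 3.23% to 6.16% in the other tumors.

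H2-T24, another gene of the T region, had a different pattern. It was at 6.41, 4.59 and 5.42 CPM in Control, 6.01, 8.66 and 4.57 CPM in ASC, 3.1, 2.58 and 2.79 CPM in As300, and 4.37, 6.42 and 5.38 CPM in ASC_As300. The 3 As300 tumors were the lowest of the 12, and the other groups overlapped. The log2 fold change was 0.23 (SE 0.25, adjusted p = 0.722, edgeR) for ASC against Control and 0.93 (SE 0.254, adjusted p = 0.163, edgeR) for ASC_As300 against As300.

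The Q region members H2-Q6 and H2-Q7 encode Qa-2, a class I molecule tethered to the membrane by a lipid anchor. H2-Q7 was at 60, 30.9 and 16.4 CPM in Control, 58.9, 76.0 and 59.5 CPM in ASC, 24.5, 16.6 and 26.4 CPM in As300, and 47.0, 61.5 and 54.1 CPM in ASC_As300. H2-Q6 ran alongside, at 56.7, 23.3 and 13.4 CPM in Control, 45.4, 62.4 and 49.7 CPM in ASC, 21.3, 14.5 and 25.2 CPM in As300, and 44.3, 49.1 and 46.9 CPM in ASC_As300. For both genes Control replicate 1 reached the level of the ASC tumors while the other Control tumors did not, and As300 and ASC_As300 did not overlap. H2-Q4 was at 54.4, 31.4 and 21.0 CPM in Control, 73.7, 85.5 and 75.9 CPM in ASC, 28.8, 19.3 and 30.0 CPM in As300, and 65.8, 69.6 and 75.5 CPM in ASC_As300. Here all 6 tumors with ASC were above all 6 without, Control replicate 1 included.

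In the Q region the SE ran from 0.266 to 0.388, against 0.103 to 0.138 for H2-T22 and H2-T23. H2-Q4 had a log2 fold change of 1.14 (SE 0.266, adjusted p = 0.079, edgeR) for ASC against Control, which was not called, and of 1.43 (SE 0.268, adjusted p = 0.0249, edgeR) for ASC_As300 against As300, which was. H2-Q7 had 0.86 (SE 0.343, adjusted p = 0.26, edgeR) and 1.27 (SE 0.347, adjusted p = 0.166, edgeR) in these comparisons, and H2-Q6 0.75 (SE 0.384, adjusted p = 0.376, edgeR) and 1.20 (SE 0.388, adjusted p = 0.279, edgeR). Counts of related H2-Q genes, with H2-Q1 and H2-Q10 but without H2-Q5, were also summed to 1 feature. Its log2 fold change was 0.94 (SE 0.316, adjusted p = 0.196, edgeR) and 1.29 (SE 0.319, adjusted p = 0.109, edgeR), so that the call of H2-Q4 against As300 was lost in the sum. H2-Q4 shares 1.16% of its 100-base stretches with H2-Q6, so the sum pools distinct genes and is no correction for shared reads alone. H2-Q6 per kilobase was 154% to 195% of H2-Q7 in every tumor.

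H2-M3 presents peptides that begin with N-formylmethionine, as those of bacteria and mitochondria do. It was at 13.5, 11 and 7.09 CPM in Control, 19.6, 16.7 and 18.9 CPM in ASC, 10.7, 10 and 11.3 CPM in As300, and 17.9, 22.3 and 17.7 CPM in ASC_As300. The 6 tumors with ASC were all above the 6 without. The log2 fold change was 0.81 (SE 0.199, adjusted p = 0.0962, edgeR) for ASC against Control and 0.85 (SE 0.198, adjusted p = 0.0809, edgeR) for ASC_As300 against As300, and neither was called.

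Outside the H2 complex no change with ASC was called. Cd1d1 presents lipids to NKT cells and was at 10.6, 6.16 and 3.95 CPM in Control, 4.21, 9.51 and 4.52 CPM in ASC, 3.33, 3.43 and 2.72 CPM in As300, and 3.78, 4.92 and 4.45 CPM in ASC_As300. Control and ASC each held 1 high tumor and overlapped widely, while As300 lay lowest. Mr1 presents metabolites of microbial riboflavin synthesis to MAIT cells and was at 12, 13.8 and 11.5 CPM in Control, 11.2, 11.4 and 12.9 CPM in ASC, 8.71, 8.22 and 9.36 CPM in As300, and 11.6, 10.9 and 11.9 CPM in ASC_As300. Mr1 was thus even across 3 groups and lower in all 3 As300 tumors. For ASC against Control the log2 fold change was -0.19 (95% interval -0.979 to 0.606) for Cd1d1 and -0.07 (95% interval -0.358 to 0.217) for Mr1. For ASC_As300 against As300 it was 0.47 (95% interval -0.328 to 1.27) for Cd1d1 and 0.39 (95% interval 0.101 to 0.677, adjusted p = 0.318, edgeR) for Mr1.

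**Figure D3:**
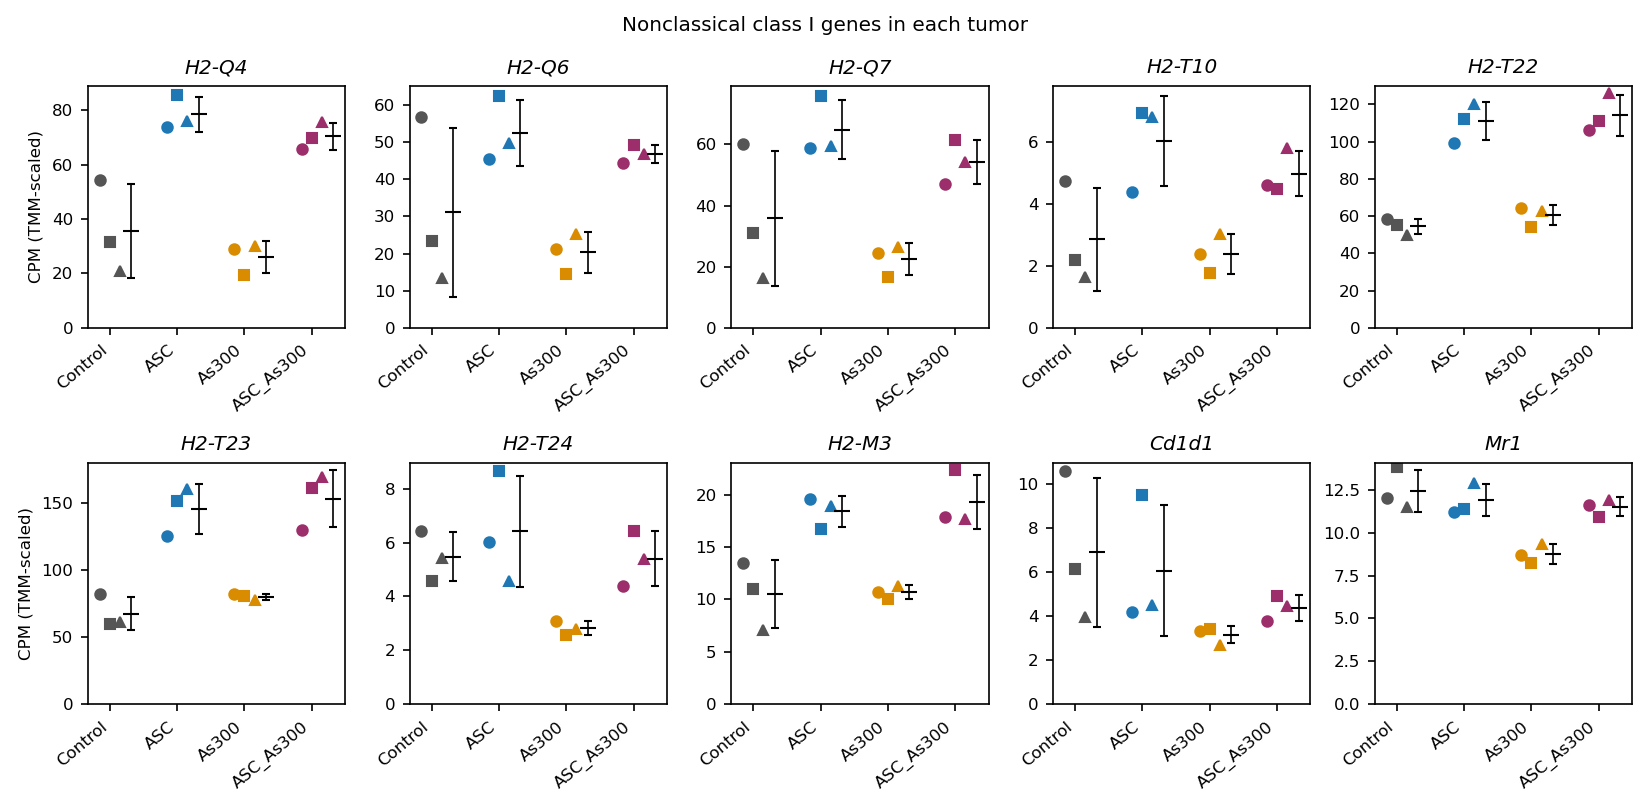
Level (TMM-scaled CPM, axis from 0) of each member in the 12 tumors, with circles, squares and triangles for replicates 1, 2 and 3 of a group and a black bar for the mean ± SD of 3 tumors. H2-T22, H2-T23, H2-Q4 and H2-M3 separate the 6 tumors with ASC from the 6 without (1.68% of all genes did, higher with ASC). Control replicate 1 is high in H2-Q6 and H2-Q7, and As300 is lowest in H2-T24, Cd1d1 and Mr1.

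Counted together, 2 of the 10 members (H2-T22 and H2-T23) were called higher in ASC than in Control, against 0.706% of all genes tested. The median log2 fold change over the 10 was 0.832, against -0.0044 over all genes. In 4 of the 10 the groups did not overlap, with ASC higher (9.94% of all genes). ASC_As300 against As300 gave 3 calls, H2-Q4, H2-T22 and H2-T23 (0.793% of all genes), a median of 0.935 against 0.000186, and 10 of 10 members without overlap (11.3% of all genes). Averaged over both iAs levels, the ASC effect was called in 5 members (1.36% of all genes): H2-Q4 at 1.29 (SE 0.189, adjusted p = 0.00226), H2-Q7 at 1.06 (SE 0.244, adjusted p = 0.0466, a call that held in 7 of 19 alternatives), H2-T22 at 0.97 (SE 0.073, adjusted p = 1e-05), H2-T23 at 1.02 (SE 0.0976, adjusted p = 6.34e-05) and H2-M3 at 0.83 (SE 0.14, adjusted p = 0.00633) by edgeR on the log2 scale. H2-T10 missed the threshold at 1.06 (adjusted p = 0.0652, edgeR), as did H2-Q6 at 0.98 (adjusted p = 0.121, edgeR) and H2-T24 at 0.58 (adjusted p = 0.174, edgeR). In 4 of the 10, H2-Q4, H2-T22, H2-T23 and H2-M3, all 6 tumors with ASC lay above all 6 without (1.68% of all genes). No member was called lower with ASC in these 3 comparisons, in which 0.0144%, 0.0624% and 0.0865% of all genes were. The DESeq2 Wald test called more members higher: 5 in ASC against Control (2.53% of its genes), namely H2-Q4, H2-T10, H2-T22, H2-T23 and H2-M3, then 5 in ASC_As300 against As300 (1.49%) and 6 for the ASC effect over both iAs levels (1.79%). At an unadjusted p under 0.05 with the 1.5-fold minimum kept, 6 members were higher in ASC against Control (3.37% of all genes) and 8 in ASC_As300 against As300 (3.08%).

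Leaving out Control replicate 1, the tumor rich in B and T cell markers, changed these counts. ASC against Control then gave 7 members called higher (0.979% of all genes): H2-Q4, H2-Q6, H2-Q7, H2-T10, H2-T22, H2-T23 and H2-M3, with log2 fold changes of 1.03 for H2-M3 to 1.66 for H2-T10. ASC_As300 against As300 gave 6 (1.07% of all genes) and the ASC effect over both iAs levels 7 (1.86% of all genes). H2-T24, Cd1d1 and Mr1 were not called without it either. The part that the B cell and T cell content of that tumor has in the main counts was not tested. Leaving out Control replicate 3 instead lowered changes in ASC against Control. On the log2 scale they were then 0.41 for H2-Q6, 0.53 for H2-Q7, 0.61 for H2-M3, 0.82 for H2-T10 and 0.89 for H2-Q4. H2-T22 and H2-T23 stayed called. T cell marker sums were 70.1 to 93.7 CPM in ASC and 59.3 to 95.0 CPM in ASC_As300. They were 17.8 to 25.1 CPM in As300, 114 CPM in Control replicate 1 and 19.7 and 22.7 CPM in the other Control tumors. Outside Control replicate 1 they were thus higher in every tumor with ASC. Control replicate 1 itself lay above every tumor with ASC in these markers, but below them in H2-Q4, H2-T22, H2-T23 and H2-M3. NK cell marker sums (10 of 10 detected) were 57.0 to 75.4 CPM in ASC and 68.2 to 80.5 CPM in ASC_As300, above the 52.1 to 55.9 CPM of Control, replicate 1 included, and the 42.7 to 44.7 CPM of As300. Epithelial marker sums tended the other way, at 70.8 to 101 CPM in ASC and 69.2 to 88.7 CPM in ASC_As300. They were 99.4 to 401 CPM in Control, which overlapped ASC, and 142 to 178 CPM in As300. The single markers were mixed. Of the 8 tested, 3 were higher for the ASC effect over both iAs levels, with a median log2 fold change of -0.174. The keratin gene Krt8 was the 1 called lower in that effect. Macrophage marker sums were 1280 to 1760 CPM in ASC and 1340 to 1580 CPM in ASC_As300, against 850 to 1160 CPM in Control and 1200 to 1210 CPM in As300. The part of these 4 cell types in the result was not tested.

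**Figure D4:**
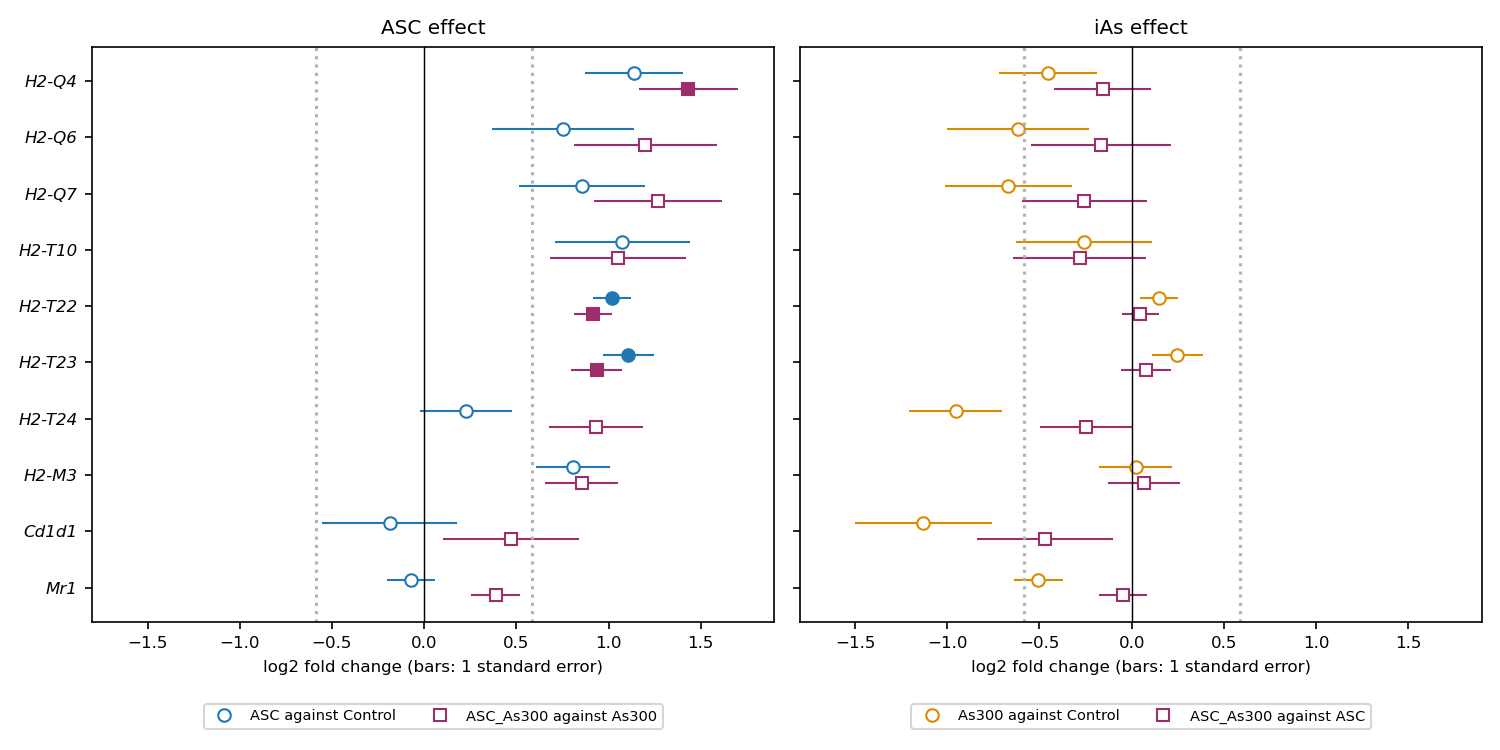
Log2 fold change of each member with 1 SE on either side (bars), for ASC with and without iAs (left) and for iAs without and with ASC (right); filled symbols were called by edgeR's quasi-likelihood test, and dotted lines mark a 1.5-fold change. H2-T22 and H2-T23 are filled in both ASC comparisons, H2-Q4 in ASC_As300 against As300, and no symbol is filled for iAs.

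As300 against Control gave no call among the 10 members, against 0.701% of all genes called higher and 0.355% called lower by edgeR. At an unadjusted p under 0.05, 3 members were lower (13% of all genes) and none higher, and the same 3 were without overlap (15.4% of all genes were lower without overlap). Mr1 changed by less than 1.5-fold, which leaves 2 with that minimum (3.67% of all genes). H2-T24 had a log2 fold change of -0.96 (SE 0.254, adjusted p = 0.0581, edgeR), Cd1d1 of -1.13 (SE 0.371, adjusted p = 0.0939, edgeR) and Mr1 of -0.51 (SE 0.133, adjusted p = 0.0562, edgeR). The DESeq2 Wald test called 2 of them lower, H2-T24 (adjusted p = 0.0083) and Cd1d1 (adjusted p = 0.0239), where it called 1.86% of genes lower. Without Control replicate 1 the log2 fold changes were -0.81 for H2-T24 (adjusted p = 0.128, edgeR), -0.66 for Cd1d1 (adjusted p = 0.307, edgeR) and -0.51 for Mr1 (adjusted p = 0.0968, edgeR), and by edgeR none of the 21664 genes then tested was called higher (0%) or lower (0%), with 2341 higher and 2162 lower at an unadjusted p under 0.05. The other members had log2 fold changes between -0.67 (H2-Q7) and 0.25 (H2-T23). The signs of H2-Q4, H2-Q6 and H2-T10 turned to positive without that tumor.

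The 3 tumors highest in Cd1d1, Control replicates 1 and 2 and ASC replicate 2, also had the 3 highest sums of adipocyte markers (10 of 10 detected), at 441, 290 and 877 CPM. Control replicate 3 had 201 CPM and the remaining 8 tumors 48.5 to 109 CPM. Among the lower tumors the order was not kept. As300, lowest in Cd1d1 at 2.72 to 3.43 CPM, had adipocyte sums of 68.4 to 109 CPM. ASC_As300, at 3.78 to 4.92 CPM of Cd1d1, had 48.5 to 88.1 CPM. The part of adipocytes in the Cd1d1 result was not tested. Neural markers were higher in As300, at 116 to 171 CPM against 51.0 to 93.8 CPM in the other tumors.

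With ASC present, no member passed the test for iAs. ASC_As300 against ASC gave 0 calls among members and 0 (0%) among all genes by edgeR, and 0 members passed an unadjusted p of 0.05, while 307 genes higher (1.47%) and 362 lower (1.74%) did over the whole table. DESeq2 called 0 members, where it called 0.0167% of its genes higher and 0.0293% lower. Members ran from -0.47 (Cd1d1, 95% interval -1.27 to 0.325) to 0.08 (H2-T23, 95% interval -0.218 to 0.374) on the log2 scale. Over both ASC levels, the iAs effect gave 0 calls by edgeR (0% of all genes) and 3 members lower at an unadjusted p under 0.05 (8.46% of all genes), with log2 fold changes of -0.80 for Cd1d1 (adjusted p = 0.198), -0.60 for H2-T24 (adjusted p = 0.186) and -0.28 for Mr1 (adjusted p = 0.209). Of these 3, Cd1d1 and H2-T24 also changed by 1.5-fold (2.39% of all genes did, lower, at that p). DESeq2 called H2-T24 and Cd1d1 lower there, with 0.568% of genes. Without Control replicate 1 these were -0.57 for Cd1d1 (adjusted p = 0.298), -0.53 for H2-T24 (adjusted p = 0.256) and -0.28 for Mr1 (adjusted p = 0.266), H2-T10 turned from -0.27 to 0.023, and edgeR called 0 genes (0%), with 1652 higher and 1526 lower at an unadjusted p under 0.05. The interaction, which tests whether the iAs effect differs with and without ASC, gave 0 calls by edgeR (0% of all genes) and 0 among members by DESeq2 (0.199% of its genes positive and 1.05% negative). Mr1 was at 0.46 (SE 0.187, adjusted p = 0.333, edgeR), the only member with an unadjusted p under 0.05 (7.08% of all genes were positive at it), and H2-T24 at 0.71 (SE 0.355, adjusted p = 0.399, edgeR). Without Control replicate 1 the interaction was 0.46 for Mr1 (adjusted p = 0.366, edgeR) and 0.55 for H2-T24 (adjusted p = 0.542, edgeR), and that of Cd1d1 went from 0.66 to 0.18. It turned sign for H2-Q4 (0.30 to -0.17), H2-Q6 (0.45 to -0.34), H2-Q7 (0.41 to -0.21) and H2-M3 (0.05 to -0.19). By edgeR 0 genes (0%) were called in it then, with 1307 positive and 1564 negative at an unadjusted p under 0.05.

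ASC_As300 against Control, which changes both factors at once, gave the calls H2-T22 at 1.07 (SE 0.103, adjusted p = 0.000355, edgeR) and H2-T23 at 1.19 (SE 0.138, adjusted p = 0.000964, edgeR), 2 of 10 against 0.783% of all genes. H2-M3 was at 0.88 (adjusted p = 0.0631, edgeR) and H2-Q4 at 0.98 (adjusted p = 0.12, edgeR), both without overlap between groups, as were 4 members in all (13.5% of all genes). DESeq2 called 4 members (2.21% of its genes), and 4 passed an unadjusted p under 0.05 with the 1.5-fold minimum (2.62% of all genes). Mr1 was at -0.12 (adjusted p = 0.721, edgeR), H2-T24 at -0.02 and Cd1d1 at -0.66 (adjusted p = 0.424, edgeR). Without Control replicate 1, 5 members were called (0.919% of all genes). This comparison shares Control tumors with those of ASC and As300.

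The share of the members outside the H2 complex differed between groups. Cd1d1 and Mr1 together made up 4.82%, 5.72% and 5.27% of the summed CPM per kilobase of the 10 members in Control, 2.23%, 2.97% and 2.19% in ASC, 3.18%, 3.69% and 2.99% in As300, and 2.24%, 2.11% and 2.07% in ASC_As300. All Control tumors were highest and the groups As300 and ASC_As300 did not overlap. The 10 members as a share of themselves plus H2-K1 and H2-D1 were 30.0%, 26.4% and 27.6% in Control and 23.2% to 25.6% in the other 9 tumors. H2-T22 stayed at 57.0% to 78.0% of H2-T23.

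The classical genes H2-K1 and H2-D1 were called higher with ASC as well. For the ASC effect over both iAs levels they were at 1.35 (SE 0.149, adjusted p = 0.000221, edgeR) and 1.08 (SE 0.104, adjusted p = 7.4e-05, edgeR), and both were called for ASC against Control, ASC_As300 against Control and ASC_As300 against As300. Of 12 genes of light chain and peptide loading, 9 were called higher in the ASC effect over both iAs levels (1.36% of all genes). Among them were Erap1 (1.08), which trims peptides, Tapbp (1.13), the tapasin of the loading complex, Psmb10 (1.60), an immunoproteasome subunit, and B2m (0.95). None of the 12 was called in As300 against Control, where Erap1 was at -0.50 (adjusted p = 0.0448, edgeR), short of 1.5-fold. Of 27 other class I-like genes, 15 were tested and 1, H2-Q1, was called higher at 1.08 (SE 0.16, adjusted p = 0.00235, edgeR). H2-M2 was called lower in As300 against Control (adjusted p = 0.045, edgeR), at 0.025 ± 0.0433 CPM against 0.771 ± 0.644 CPM (SD, n = 3), too low for a fold to be given.

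Interferon signalling and class I transcription had 6 of 18 tested genes called higher for the ASC effect over both iAs levels (1.36% of all genes). NLRC5, the class I transactivator, is encoded by Nlrc5, which was at 15.2 ± 6.89 CPM in Control, 52.0 ± 11.9 CPM in ASC, 7.04 ± 1.67 CPM in As300 and 51.6 ± 5.08 CPM in ASC_As300 (SD, n = 3), with a log2 fold change of 2.32 (SE 0.219, adjusted p = 5.92e-05, edgeR). Irf1 was at 1.57 (SE 0.0882, adjusted p = 1.37e-06, edgeR) and Stat2 at 1.16 (SE 0.119, adjusted p = 0.000126, edgeR). Ifng, which encodes interferon gamma, was called in that effect as well (adjusted p = 0.00385, edgeR), at 1.72 to 2.31 CPM in ASC and 1.86 to 3.52 CPM in ASC_As300 against 0.0868 to 0.23 CPM in Control and 0 to 0.406 CPM in As300. It was also called in ASC_As300 against Control. By edgeR it was not called in ASC against Control (adjusted p = 0.0563) or ASC_As300 against As300 (adjusted p = 0.0813). Its counts in tumors without ASC were 0 to 23.

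Of 10 listed receptors of class I and class I-like molecules, 9 were tested and 5 were called higher for the ASC effect over both iAs levels (1.36% of all genes): Cd8a, Klrc1, Klrk1, Pirb and Cd160. Klrc1, which encodes the NKG2A receptor of Qa-1, was at 2.48 (SE 0.272, adjusted p = 0.000209, edgeR), with 1.08 ± 0.203 CPM in Control, 3.97 ± 0.685 CPM in ASC, 0.667 ± 0.419 CPM in As300 and 5.61 ± 1.1 CPM in ASC_As300 (SD, n = 3). Klrk1, which encodes NKG2D, a receptor of stress-induced class I-like proteins such as RAE-1 and not of the members, was at 1.77 (SE 0.225, adjusted p = 0.000721, edgeR), Cd160 at 1.11 (SE 0.233, adjusted p = 0.0258, edgeR) and Pirb, an inhibitory receptor of myeloid cells, at 0.73 (SE 0.15, adjusted p = 0.0225, edgeR). Among genes listed for the innate-like T cells that Cd1d1, Mr1 and H2-T22 serve, 7 of 11 were tested and 0 called. The list also holds general T cell genes such as Cd3e, so it is not specific to these cells. The smallest p values were those of Sh2d1a at 1.56 (adjusted p = 0.127, edgeR) and Cd3e at 1.72 (adjusted p = 0.216, edgeR). The summed level was 14.6 to 26.6 CPM in ASC and 15.1 to 23.1 CPM in ASC_As300. It was 4.09 to 7.58 CPM in As300, 28.3 CPM in Control replicate 1 and 8.15 and 4.08 CPM in the other Control tumors. Of 6 genes that load lipids on CD1d, 0 were called, since Psap (0.31, adjusted p = 0.00848, edgeR) and Gm2a (0.54, adjusted p = 0.0196, edgeR) changed by less than 1.5-fold.

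Genes with the most similar pattern over the 12 tumors, by Pearson's r of log2 CPM and outside the members, are given as a description, since all points share the groups and libraries. The nearest to H2-T22 was Ube2l6 (r = 0.991), and to H2-Q4 it was Uba7 (r = 0.984), both enzymes that attach the interferon-induced ISG15. H2-T23 was nearest to the immunoproteasome gene Psmb10 (r = 0.983), H2-Q7 to its neighbour H2-Q5 (r = 0.986), with which it shares 2.06% of its 100-base stretches, H2-Q6 to the nuclear body gene Sp110 (r = 0.974), H2-M3 to the class II loading gene H2-DMb1 (r = 0.973) and H2-T10 to the leukocyte antigen Cd52 (r = 0.97). The other 3 had lower values: H2-T24 with Gm6430 (r = 0.943), Cd1d1 with the actin-binding Ablim1 (r = 0.943) and Mr1 with Eif2ak3, the stress kinase PERK, (r = 0.901). Among the members themselves r was 0.989 for H2-Q6 with H2-Q7 and 0.977 for H2-T22 with H2-T23, while Cd1d1 had 0.111 with H2-T22 and 0.134 with H2-T23, and Mr1 0.207 with H2-T23. Cd1d1 and H2-T24 were at 0.765.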

How the data were processed

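The deposited table held whole-number counts per Ensembl gene for 12 tumors, not normalized. According to the methods and the submitters' processing notes, the authors trimmed paired-end reads of stranded poly(A) libraries with cutadapt 1.1.0, used HISAT2 2.0 for alignment, and StringTie 1.3.4 for assembly and quantification. The counting step, strand setting, genome build and annotation are not given in the sources used here. Symbols, positions and lengths came from GENCODE M21 (GRCm38), and 55141 of 55401 IDs had a symbol.

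Counts were analysed with edgeR 4.0.16 in R 4.3.3: filterByExpr by group, TMM, 1 mean per group, quasi-likelihood F test, 8 comparisons, Benjamini-Hochberg adjustment over 20818 genes. Calls needed an adjusted p under 0.05 and 1.5-fold. An exact test of 3 against 3 tumors cannot go below p = 0.1. DESeq2 1.42.0 and other alternatives are given under the processing limits. The fits were tested on simulated data. Named genes were all members, H2-K1, H2-D1, B2m, Nlrc5, Irf1 and Ifng, up to 4 called genes of each other list by smallest p (up to 2 where none was called), and for each member the gene nearest in pattern; 1 further gene of this rule is not reported here. Cd8a falls outside this rule and was named to complete a count of 5. The members and lists were chosen with earlier results of these data known. A floor of 12 counts marked genes near 0, and intervals cover the spread between tumors only. Same-numbered tumors deviated together in 2 of 18 pairs (r over 0.1, range -0.124 to 0.172), so the numbers are not shown to pair tumors.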

Additional observations from a re-analysis of the deposited data

How the results depend on the processing

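H2-T22 and H2-T23 kept their calls for ASC against Control, ASC_As300 against As300 and the ASC effect over both iAs levels under all 20, 20 and 19 alternatives. Of 1281 alternative values of 59 member results, 1190 kept direction and side of the threshold, 56 newly passed it, 19 no longer did and 16 changed sign. These 59 do not cover every member in every comparison. Outside them, signs also changed in ASC_As300 against ASC for H2-T10, H2-T22, H2-T24, H2-M3 and Mr1. They changed in the iAs effect over both ASC levels for H2-T10 and H2-M3, and in the interaction for H2-Q4, H2-Q6, H2-Q7, H2-T10 and H2-M3.

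Members called higher for ASC against Control numbered 2 and became 6 at unadjusted p with the 1.5-fold minimum kept (3.37% of all genes), 5 with DESeq2 and 2 to 7 over the fits without 1 tumor (7 without Control replicate 1). For ASC_As300 against Control 2 became 4 at that unadjusted p (2.62%), 4 with DESeq2 and 2 to 5 over those fits. For ASC_As300 against As300 3 became 8 at it (3.08%), 6 with only the tumors compared, 5 with DESeq2 and 2 to 6 over those fits (6 without Control replicate 1, 5 without Control replicate 3). The ASC effect over both iAs levels gave 5, and 4 to 7 over those fits. Members called lower in As300 against Control numbered 0, and 2 at unadjusted p with that minimum (3.67%, Mr1 falling short of it). They numbered 1 with at least 10 counts in every tumor (115 of 15722 genes lower), 2 with DESeq2 and 0 to 1 over those fits (1, H2-T24, without ASC replicate 3). The iAs effect over both ASC levels gave 0 lower, 2 at unadjusted p with that minimum (2.39%, again without Mr1) and 2 with DESeq2. The length-scaled level of Mr1 moved from 1.86 to 3.46 with the longest transcript. The cause of these differences was not tested. Shares of all genes are not given for the fit with only the tumors compared, nor for fits without a tumor other than Control replicate 1.

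Signs changed for Mr1 with the GC correction, to 0.043 in ASC against Control and 0.009 in ASC_As300 against Control, and for H2-T10 in As300 against Control with H2-T10 and H2-T22 summed, to 0.13. Over the fits without 1 tumor, ASC against Control ran from -0.048 to 0.42 for H2-T24, -0.66 to 0.28 for Cd1d1 and -0.14 to 0.027 for Mr1. As300 against Control ran from -0.69 to 0.007 for H2-Q4, -0.95 to 0.17 for H2-Q6, -0.51 to 0.34 for H2-T10 and -0.17 to 0.26 for H2-M3. H2-T24 in ASC_As300 against Control ran from -0.16 to 0.12, Cd1d1 in ASC_As300 against ASC from -0.69 to 0.0062, H2-T23 there from -0.032 to 0.18, and Cd1d1 in the ASC effect over both iAs levels from -0.094 to 0.37. Without Control replicate 1 the sign of H2-Q4, H2-Q6 and H2-T10 in As300 against Control, of Cd1d1 in ASC against Control and of H2-T24 in ASC_As300 against Control turned, as did H2-Q4, H2-Q6, H2-Q7 and H2-M3 in the interaction and H2-T10 in the iAs effect over both ASC levels.

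With the replicate number as a block, members called higher numbered 2 for ASC against Control (146 of 20818 genes) and 2 for ASC_As300 against Control (151 genes). They numbered 3 for ASC_As300 against As300 (146 genes) and 4 for the ASC effect over both iAs levels (270 genes), H2-Q7 being the member lost in the last. The numbers are not shown to pair tumors, with 5 of 12 tumors closest to one of their own number. Counts a tumor ran from 76 to 293 for H2-T10, 124 to 325 for H2-T24 and 133 to 514 for Cd1d1, and 3 tumors a group limit the precision for every member.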
